A study of Mus musculus with 16 samples.

Results

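Mock libraries were compared between Rnmt cKO and control CD4 T cells. These are the libraries of a Ψ-seq experiment that never saw CMC, the carbodiimide that marks pseudouridine, so they hold the signals of rRNA other than the CMC adduct. They were taken by their sample titles and number 8 of the 16 libraries of the series, 4 of Rnmt cKO and 4 of control. All came from females and are labelled as replicates 1 to 4 of their genotype. Whether a replicate is 1 animal is not stated there, so p-values measure the spread between these samples, which may be technical in part. Rnmt cKO cells were Rnmt fl/fl with CD4-Cre and control cells were Rnmt fl/fl without it, so both carried the floxed alleles. RNMT is the methyltransferase of the mRNA cap. CD4-Cre acts in the thymus from the stage at which cells carry both CD4 and CD8, so the gene is lost before the CD4 T cells mature. CD4 T cells from lymph nodes were activated for 20 h on plates coated with anti-CD3 and anti-CD28, and total RNA was extracted. Only 18S, 28S, 5.8S and 5S rRNA were counted, so neither Rnmt deletion nor the identity of the cells could be checked in these files.

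Ribosomal RNA is cut from a long precursor and modified while the ribosome is built. Besides pseudouridine it carries many 2′-O-methylated riboses, which fibrillarin places with the help of small nucleolar RNAs, and a few methylated or acetylated bases, each made by its own enzyme. In a library without CMC, a read begins where reverse transcription ended. That can be a modified nucleotide that halts the enzyme, a break in the RNA, an end made by the alkaline fragmentation, or the natural end of the rRNA, and these cannot be told apart at a single nucleotide. A halted enzyme leaves the read start 1 nucleotide downstream of the modified one, and positions are given here as that stop, counted from 1 at the 5′ end of each rRNA. Mock termination is the share of read starts at a nucleotide among all starts in the 65 nucleotides that end there, in percent.

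The 18S nucleotides that carry the results below were found in an 18S copy of the mouse genome, from GENCODE vM21 on GRCm38, on the plus strand of chr17:39846353-39848201. The annotated transcript there is antisense to it. A list of modified 18S nucleotides was written from textbook knowledge of human 18S rRNA, after the called positions had been seen. Human numbers past 200 were moved to the deposited numbering by a fixed shift, for an insertion assumed near there. That shift was not fitted. The list holds 40 ribose methylations and 7 base modifications, and all 47 bases matched the copy. That match is partly fitted. The copy has 1849 nucleotides against 1871 in the deposited 18S and was aligned in segments, at offsets of 0, 5 and -22. The offsets were chosen by the best match to these same bases, except the last, which was set by the 3′ end. The first 3 sequences hold base modifications with strong stops. The next 7 hold the ribose methylations whose stops were lower in Rnmt cKO when libraries were paired by replicate number. The last is a ribose methylation with a strong stop that was not. The capital is the modified nucleotide, and the read starts at the letter after it.
18S stop 1251, hypermodified uridine: cttaatttgacTcaacacgggaaa
18S stop 1642, 7-methylguanosine: ccatgaacgagGaattcccagtaa
18S stop 1854, dimethyladenosine: tccgtaggtgaAcctgcggaagga
18S stop 117, 2′-O-methyluridine: tcagttatggtTcctttggtcgct
18S stop 167, 2′-O-methyladenosine: ggtaattctagAgctaatacatgc
18S stop 1034, 2′-O-methyladenosine: attaatcaagaAcgaaagtcggag
18S stop 1329, 2′-O-methyluridine: tccgtgggtggTggtgcatggccg
18S stop 1331, 2′-O-methylguanosine: cgtgggtggtgGtgcatggccgtt
18S stop 1493, 2′-O-methylguanosine: gagcaataacaGgtctgtgatgcc
18S stop 1706, 2′-O-methylcytidine: tgtacacaccgCccgtcgctacta
18S stop 160, 2′-O-methyladenosine: taactgtggtaAttctagagctaa
In the copy the first of these windows is chr17:39847596-39847619, the second chr17:39847987-39848010 and the third chr17:39848172-39848195. The ribose windows follow in the order printed at chr17:39846457-39846480, chr17:39846507-39846530, chr17:39847379-39847402, chr17:39847674-39847697, chr17:39847676-39847699, chr17:39847838-39847861, chr17:39848051-39848074 and chr17:39846500-39846523. A reference for mouse 28S rRNA was not used here, so 28S positions are given without their bases.

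Control mock libraries held 1850996 to 2165668 read starts and Rnmt cKO mock libraries 1130058 to 1827610, with Rnmt cKO 3 the shallowest. Every position tested for termination had at least 1002 starts in its window in every library. Libraries control 1, Rnmt cKO 1 and Rnmt cKO 3 stood apart from the others of their genotype, control 1 by most. Over 67 bins of 18S and 28S, the SD of the log2 ratio of a library to the mean of the others of its genotype was 0.357 in control 1, against 0.135 to 0.212 in the other control libraries. It was 0.210 in Rnmt cKO 1, 0.228 in Rnmt cKO 3 and 0.107 to 0.124 in the remaining Rnmt cKO libraries. Whether a number marks a shared preparation is not stated in the labels.

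The first question was the balance between the rRNAs. The share of read starts in 18S, the rRNA of the small subunit, was lower in Rnmt cKO. It was 21.9, 22.1, 23.6 and 23.4% in control 1 to 4 and 20.7, 20.6, 19.8 and 21.5% in Rnmt cKO 1 to 4. All 4 Rnmt cKO libraries lay below all 4 control libraries. Control libraries averaged 22.7 ± 0.831% and Rnmt cKO libraries 20.7 ± 0.673% (SD, n = 4 each), a difference of -2.09 percentage points (exact permutation test, 2-sided, p = 0.0286, the smallest that 4 against 4 can give). The exact test did not pass the adjustment over the 16 library measures compared (adjusted p = 0.152), and 3 of the 16 measures, or 18.8%, did not overlap between genotypes. The CMC libraries of the same replicates, made from the same RNA sample in a separate reaction, had 22.0, 22.7, 23.1 and 22.6% in control and 20.3, 20.9, 20.9 and 21.8% in Rnmt cKO. There too the genotypes did not overlap (p = 0.0286 by exact permutation, adjusted p = 0.152). Shares within a library are relative, so less 18S and more of the other rRNAs cannot be told apart.

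None of the other rRNAs separated the genotypes. The share of 28S was 61.7, 55.5, 55.9 and 56.8% in control and 59.5, 56.1, 57.7 and 57.4% in Rnmt cKO, with control 1 the highest of all (p = 0.914 by exact permutation). Its CMC values were 53.5, 56.3, 54.8 and 54.8% in control and 55.7, 56.8, 58.5 and 58.6% in Rnmt cKO. They overlapped as well (p = 0.0571 by exact permutation, adjusted p = 0.183). The share of 5.8S, which pairs with 28S in the large subunit, was 4.08% in control 1 against 9.58 to 11.5% in the other control libraries, and 8.21% in Rnmt cKO 1 against 10.95 to 12.4% in the others (p = 0.343 by exact permutation). Within each replicate number the Rnmt cKO library was the higher one, in 4 of 4 pairs (exact permutation test paired by number, p = 0.125, the smallest that 4 pairs can give). In the CMC libraries it was the lower one in 3 of 4 pairs, with 12.2, 9.52, 10.8 and 11.6% for control and 11.9, 11.2, 10.7 and 9.28% for Rnmt cKO (p = 0.743 by exact permutation). The share of 5S, transcribed apart from the others by RNA polymerase III, was 10.3 to 12.3% in control and 10.0 to 11.6% in Rnmt cKO (p = 0.629 by exact permutation). The libraries numbered 1 were the lowest of their genotype in 5.8S, and the genotypes overlapped with and without them.

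The ratio of 28S to 18S starts was 2.82, 2.51, 2.37 and 2.43 in control 1 to 4 and 2.87, 2.72, 2.92 and 2.68 in Rnmt cKO 1 to 4. Control 1 lay among the Rnmt cKO libraries, and the other 3 control libraries lay below all of them. Control libraries averaged 2.53 ± 0.197 and Rnmt cKO libraries 2.79 ± 0.116 (n = 4 each, p = 0.0857 by exact permutation, adjusted p = 0.343). In the CMC libraries it was 2.43, 2.48, 2.38 and 2.42 in control and 2.74, 2.72, 2.80 and 2.69 in Rnmt cKO, without overlap (p = 0.0286 by exact permutation, adjusted p = 0.152). In read starts per nucleotide, scaled to equal library totals (CPM divided by length), the level was 122 ± 4.44 for 18S and 121.5 ± 6.10 for 28S in control, and 110.4 ± 3.598 and 122 ± 2.95 in Rnmt cKO. On the same scale 5.8S was at 566 ± 209 and 704 ± 126, and 5S at 913 ± 75.8 and 891 ± 61.6 in control and Rnmt cKO. The short rRNAs gave several times more starts per nucleotide than the long ones in both genotypes.

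**Figure D1:**
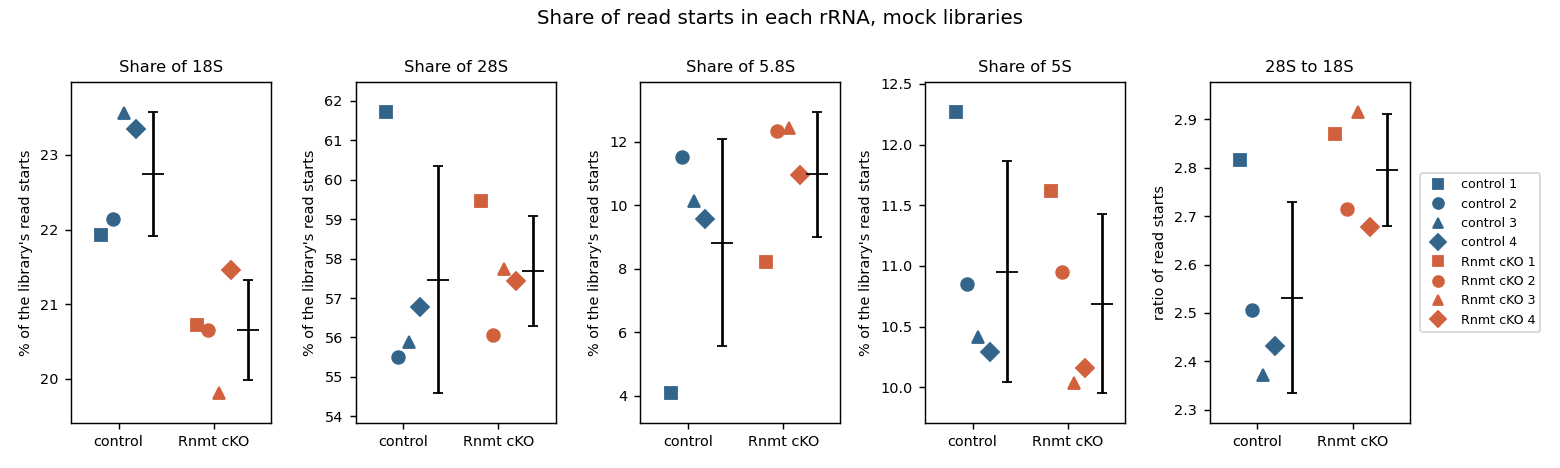
Share of each rRNA in the read starts of the 8 mock libraries, in percent, and the ratio of 28S to 18S starts. Points are libraries, shapes give the replicate number, and black bars are the mean ± SD of 4 libraries. The axes do not start at 0. For 18S the control libraries lie at 21.9 to 23.6% and the Rnmt cKO libraries at 19.8 to 21.5%.

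Breaks and processing were compared at the ends and along the length. The first nucleotide of a mature rRNA collects the reads that ran to its natural end, and those of fragments that begin there. In 18S it held 1.15, 1.46, 1.43 and 1.39% of the 18S starts in control 1 to 4 and 1.55, 1.66, 2.21 and 1.64% in Rnmt cKO 1 to 4. All Rnmt cKO libraries lay above all control libraries, and Rnmt cKO 3 lay far above the rest (p = 0.0286 by exact permutation, adjusted p = 0.152). In the CMC libraries of the same replicates the same share was 1.35 to 1.54% in control and 1.21 to 1.55% in Rnmt cKO, with overlap (p = 0.543 by exact permutation). In 28S the first nucleotide held 0.400 to 0.447% in control and 0.421 to 0.498% in Rnmt cKO (p = 0.371 by exact permutation). In 5.8S it held 5.29% in control 1 and 3.11% in Rnmt cKO 1 against 1.66 to 2.21% in the other 6 libraries (p = 0.514 by exact permutation). In 5S it held 1.48 to 2.5003% in control and 1.33 to 1.89% in Rnmt cKO, lower in Rnmt cKO in 4 of 4 pairs (p = 0.257 by exact permutation). The CMC libraries went the other way, with 2.09, 1.79, 1.29 and 1.58% for control and 2.22, 1.87, 2.18 and 2.12% for Rnmt cKO, higher in 4 of 4 pairs (p = 0.0571 by exact permutation).

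Downstream of the midpoint of 18S lay 49.7 ± 1.86% of its starts in control and 49.9 ± 1.63% in Rnmt cKO libraries (n = 4 each; p = 0.943 by exact permutation). For 28S these were 57.3 ± 1.58% and 56.7 ± 1.09% (p = 0.657 by exact permutation). The differences of 0.127 and -0.510 percentage points were smaller than the SD within either genotype. The 10 strongest stops of 28S took 2.11% of its starts in control 1, 2.96 to 2.98% in the other control libraries, 3.00 to 3.08% in 3 Rnmt cKO libraries and 3.602% in Rnmt cKO 3 (p = 0.0286 by exact permutation, adjusted p = 0.152). In the CMC libraries this share was 2.58 to 2.68% in control and 2.404 to 2.63% in Rnmt cKO, which overlapped. For 18S the 10 strongest stops took 6.73 ± 0.744% in control and 7.09 ± 0.262% in Rnmt cKO (p = 0.429 by exact permutation). The CMC libraries gave them less in Rnmt cKO, without overlap, with 7.52, 7.45, 8.06 and 7.44% for control and 7.06, 6.61, 5.73 and 5.48% for Rnmt cKO (p = 0.0286 by exact permutation, adjusted p = 0.152).

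Along the rRNAs, none of 71 bins of 100 nucleotides held a changed share of the starts of its rRNA (edgeR, 0%, lowest adjusted p = 0.142), and 4 bins, or 5.63%, had an unadjusted p under 0.05, all higher in Rnmt cKO. With the replicate number as a block the count was also 0, with 9 bins (12.7%) at an unadjusted p under 0.05. DESeq2 gave 1 bin (1.41%), the one with the smallest p in edgeR. This bin 28S 2701 to 2800 held 0.610, 0.576, 0.597 and 0.624% of the 28S starts in control and 0.679, 0.662, 0.750 and 0.705% in Rnmt cKO. Its genotypes did not overlap, and the log2 change was 0.22 ± 0.047 (SE; edgeR, adjusted p = 0.142; DESeq2 adjusted p = 0.0291). The next were the 28S bins that end at 700, 1000 and 1800, with log2 changes of 0.10, 0.12 and 0.15, and the 18S bin 1201 to 1300 with 0.15 (edgeR, adjusted p = 0.583 each). The 28S bin 4601 to 4700 alone held 19.2 ± 1.74% of the 28S starts in control and 18.9 ± 0.904% in Rnmt cKO. The bin before it, 4501 to 4600, held 8.42% in control 1 and 7.10% in Rnmt cKO 1 against 3.06 to 5.87% in the other 6 libraries. In that bin the libraries numbered 1 thus differed from the rest more than the genotypes did.

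**Figure D2:**
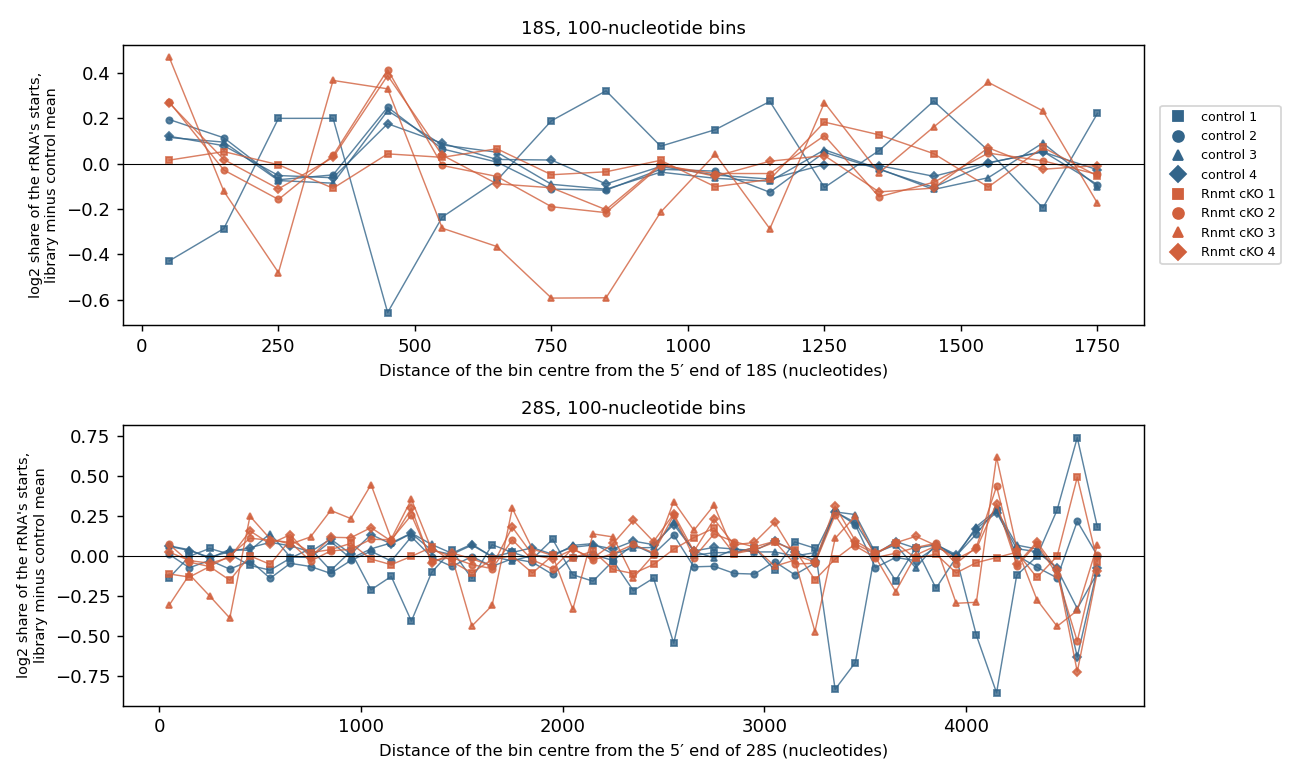
Profile of read starts in 100-nucleotide bins of 18S (top) and 28S (bottom) in the 8 mock libraries. The y axis is the log2 share of the bin in the starts of its rRNA minus the mean of the 4 control libraries, and the x axis is the distance of the bin from the 5′ end. Control 1 (blue squares) leaves the other lines in bins of both rRNAs and Rnmt cKO 3 (red triangles) in the middle of 18S, as their SDs of 0.357 and 0.228 say.

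Of the 10 strongest mock stops outside called pseudouridine sites, 4 follow listed base modifications of 18S. At 18S stop 1251, after the hypermodified uridine, a pseudouridine derivative that halts reverse transcription by itself, termination was 71.8, 72.5, 70.2 and 70.3% in control 1 to 4 and 77.0, 70.4, 72.3 and 70.5% in Rnmt cKO 1 to 4. The genotypes overlapped, and the log2 change was 0.03 ± 0.061 (SE; edgeR, adjusted p = 0.875). Set against the 6 neighbouring positions on each side, its starts were called higher without both libraries numbered 1 (log2 change 0.35, edgeR adjusted p = 0.00103). They were not called with the block (edgeR, adjusted p = 0.534). At 18S stop 1642, after the 7-methylguanosine placed by BUD23, it was 22.5, 24.1, 24.6 and 23.6% in control and 25.4, 25.8, 28.9 and 25.0% in Rnmt cKO. All Rnmt cKO libraries lay above all control libraries there, with a log2 change of 0.15 ± 0.080 that did not pass (edgeR, adjusted p = 0.649). In the CMC libraries this stop went the other way, with a mean of 24.5 ± 0.376% for control against 22.8 ± 1.30% for Rnmt cKO.

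The dimethylated adenosine pair near the 3′ end of 18S, made late in ribosome assembly by DIMT1, gave stops at 1854 and 1853. Reverse transcription meets the adenosine behind 1854 first. Termination at 1854 was 74.3, 61.7, 61.8 and 61.2% in control 1 to 4 and 69.1, 54.4, 54.3 and 55.4% in Rnmt cKO 1 to 4. In both genotypes the library numbered 1 was far above the others, and within each number Rnmt cKO was lower, in 4 of 4 pairs. The log2 change was -0.15 ± 0.11 (edgeR, adjusted p = 0.656) and -0.15 ± 0.064 with the replicate block (adjusted p = 0.276). At 1853 the libraries went the other way, with 7.78% in control 1 against 33.6 to 48.1% in the other control libraries, and 27.7% in Rnmt cKO 1 against 41.8 to 50.3% in the others (edgeR, adjusted p = 0.804). The acetylated cytidine behind stop 1340 gave 1.34 ± 0.0648% in control and 1.501 ± 0.194% in Rnmt cKO, close to the median over tested positions of 1.77 ± 0.0824% and 1.80 ± 0.0297%. Of the 7 stops after listed base modifications 5 passed the filter of 1% mean termination, and none was called lower or higher in termination.

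In 28S the strongest stops were at 4184, 1138, 3882, 4183 and 693. Termination at 4184 was 73.4, 56.9, 57.3 and 58.8% in control and 67.8, 49.2, 52.4 and 51.9% in Rnmt cKO, and at 3882 it was 51.2, 35.9, 37.7 and 36.7% against 44.7, 31.1, 28.6 and 33.0%. Both were lower in Rnmt cKO in 4 of 4 pairs and highest in control 1 (edgeR, adjusted p = 0.668 and 0.653, with the block 0.219 and 0.148). Against its neighbours 4184 went the other way in 3 of 4 pairs, with 104.4, 52.9, 50.1 and 46.8 times their starts in control and 41.3, 72.1, 68.3 and 65.7 times in Rnmt cKO. That change was called without both libraries numbered 1 (log2 change 0.46, edgeR adjusted p = 1.3e-06) and not with the block (edgeR, adjusted p = 0.966). At 1138 termination was 34.1 to 38.5% in control and 38.1 to 40.2% in Rnmt cKO, and at 693 it was 17.2 to 24.1% and 22.7 to 37.5%, both higher in Rnmt cKO in 4 of 4 pairs (edgeR, adjusted p = 0.649 for each). In the CMC libraries 693 had 15.7 to 20.0% in control and 20.7 to 23.3% in Rnmt cKO, which did not overlap, while at 1138 the CMC means were 39.2 ± 1.58% for control and 37.0 ± 2.26% for Rnmt cKO, the other direction from the mock libraries. Against its neighbours 693 was called higher with the block (log2 change 0.42, edgeR adjusted p = 0.0251). At 4183 control 1 had 10.6% and the other 7 libraries 34.0 to 39.6%. The remaining one of the 10 strongest, 18S stop 487, follows a 2′-O-methyladenosine and had 39.4, 28.4, 28.3 and 28.6% in control and 36.6, 22.9, 19.2 and 24.7% in Rnmt cKO (edgeR, log2 change -0.27 ± 0.20, adjusted p = 0.656). Against its neighbours it was called lower with the block (log2 change -0.28, edgeR adjusted p = 0.0401).

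**Figure D3:**
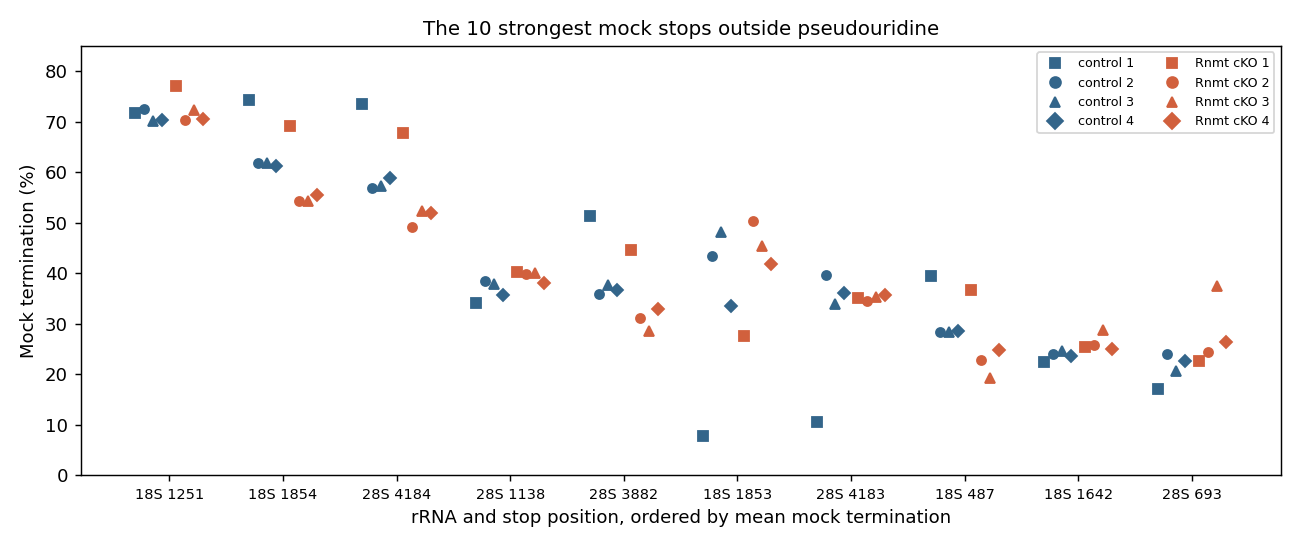
Mock termination in percent at the 10 strongest stops outside pseudouridine sites and outside the first 65 nucleotides of each rRNA, ordered by the mean over 8 libraries. Points are libraries and shapes give the replicate number. The libraries numbered 1 (squares) lie above the others of their genotype at 18S 1854, 28S 4184, 28S 3882 and 18S 487, and below them at 18S 1853, where control 1 is at 7.78%.

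Across all positions, termination was compared at 3945 of them, after 70 stops next to pseudouridine sites had been left out. None differed between genotypes (edgeR, 0%), and 244, or 6.19%, had an unadjusted p under 0.05, with 143 higher and 101 lower in Rnmt cKO. The replicate number was also fitted as a block, since deviations from the genotype mean correlated above 0.1 within every number. This rested on the libraries numbered 1 (0.659), whose deviations ran against those of other numbers (-0.600 to -0.258). Control 3 correlated more with Rnmt cKO 2 (0.393) than with Rnmt cKO 3 (0.169), and without the libraries numbered 1 the values within numbers were 0.0243, -0.0731 and 0.178. With the block 18 positions differed, or 0.456%, all of them lower in Rnmt cKO, 7 in 18S and 11 in 28S. In that fit 706 positions (17.9%) had an unadjusted p under 0.05, with 372 higher and 334 lower in Rnmt cKO. On log2 percentages limma gave 0, with 250 at an unadjusted p under 0.05. DESeq2 without the block gave 10 (0.253%), of which 9 were higher (0.228%), and gave no adjusted p for 2459 positions. Without both libraries numbered 1, a choice made after the data were seen, 103 positions differed (2.61%), with 82 lower (2.08%) and 21 higher (0.532%), and all 18 were among the lower ones. Without any single library, or without control 1 and Rnmt cKO 3, edgeR without the block called 0, with 125 to 533 at an unadjusted p under 0.05.

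Each of the 7 positions called in 18S with the block lies 1 nucleotide after a listed ribose methylation. The list was written after the called positions had been seen. Of the 1066 tested 18S positions, 32 follow a listed ribose methylation. At stop 117 termination was 16.002, 4.61, 6.002 and 6.10% in control 1 to 4 and 8.19, 2.57, 2.63 and 3.44% in Rnmt cKO 1 to 4. At stop 1331 it was 12.1, 3.33, 4.29 and 4.62% in control and 6.84, 1.26, 1.39 and 1.83% in Rnmt cKO. At stop 1706, in the decoding center of the small subunit, it was 8.85, 2.21, 2.92 and 3.01% in control and 4.68, 0.693, 0.637 and 1.023% in Rnmt cKO. At all 3 stops control 1 was highest, Rnmt cKO 1 lay above the other control libraries, and the remaining Rnmt cKO libraries lay below all others. With the block the log2 changes at 117, 1331 and 1706 were -0.95 ± 0.11, -1.28 ± 0.15 and -1.55 ± 0.20 (SE; edgeR, adjusted p = 0.0278, 0.0278 and 0.0290), and without it the adjusted p was 0.649 for each. Stop 1493 had 8.25, 1.30, 1.72 and 1.69% in control and 3.86, 0.545, 1.03 and 0.691% in Rnmt cKO, and stop 1329 had 3.89, 1.48, 1.83 and 1.76% against 2.57, 0.729, 0.7996 and 0.748% (edgeR with the block, adjusted p = 0.0278 and 0.0340). Stops 167 and 1034 changed by -0.80 and -0.71 on the log2 scale with the block (edgeR, adjusted p = 0.0290 and 0.0340).

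The 11 positions called in 28S with the block were 1142, 1338, 1339, 2620, 2635, 3477, 3490, 3960, 4225, 4274 and 4277. They moved between libraries as the 18S stops did, except that Rnmt cKO 1 lay among control 2 to 4 at 3477 and 4277. The strongest was 2620, with 32.1, 16.6, 19.1 and 17.97% in control 1 to 4 and 21.0, 10.0, 8.97 and 11.2% in Rnmt cKO 1 to 4. At 1339 termination was 36.6, 14.2, 15.6 and 15.5% in control and 21.6, 7.58, 7.33 and 8.78% in Rnmt cKO. At 1142 it was 24.6, 3.90, 4.82 and 4.94% in control and 7.46, 1.68, 1.81 and 2.14% in Rnmt cKO, and at 3960 it was 14.4, 1.65, 2.29 and 2.05% against 5.12, 0.861, 1.04 and 0.948%. Without the block, the size of the changes at these positions and at the 18S stops above depended on the libraries numbered 1. Leaving out control 1 alone brought the log2 change to 0.00782 at 28S 3960, -0.48 at 28S 1142, -0.03 at 18S 1493, -0.40 at 117, -0.47 at 1329, -0.52 at 1331 and -0.62 at 1706. Leaving out Rnmt cKO 1 alone brought them to -2.43, -2.35, -2.11, -1.50, -1.56, -2.03 and -2.43 in the same order, and none was called in either fit. Over the 18 positions the log2 change with the block ran from -1.55 to -0.70 with a median of -0.97. Of these, 28S 1338, 1339, 2620, 2635, 3490, 4225, 4274 and 4277 and 18S 167 and 1034 were outside the rule for named positions and were named after their values were seen.

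The stops after all 40 listed ribose methylations of 18S were then described together. The list was taken up after the called positions had been seen, so no test is given for it. A methylated ribose can add starts at these stops by halting the enzyme and remove them by protecting the bond after it from alkali. A lower value therefore does not tell less methylation from more. Without any filter on termination, 37 of the 40 had a lower fitted value in Rnmt cKO (92.5%), against 46% of all 6757 positions and 39.2% of 1785 18S positions without a listed mark. The median log2 change was -0.80, against 0.02 over all positions and 0.05 over unlisted 18S positions. Termination was lower in Rnmt cKO in 4 of 4 pairs at 29 of the 40 (72.5%), against 11.4% of all positions. Control libraries 2 to 4 all lay above Rnmt cKO libraries 2 to 4 at 30 of the 40 (75%), against 11.9% of all positions. No stop of the 40 had all 4 control libraries above all 4 Rnmt cKO libraries, against 1.98% of all positions. Of the 40, 32 passed the filter, of which 2 had a mean under 1% in Rnmt cKO. Among the 32, 7 were called lower with the block (21.9%, against 0.456% of all tested positions), and 16 without both libraries numbered 1 (50%, against 2.08% of all tested positions), and none was called higher.

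The list also marked the libraries that stood apart. Control 1 had the highest termination of the 4 control libraries at 36 of the 40 stops (90%, against 25.6% of all positions), and Rnmt cKO 1 was the highest of its genotype at 36 (90%, against 21.3%). The median termination over the 40 stops was 5.13, 1.53, 1.81 and 1.80% in control 1 to 4 and 2.58, 0.958, 0.847 and 1.06% in Rnmt cKO 1 to 4. Over all tested positions the same median was 1.65 to 1.82% in control and 1.76 to 1.82% in Rnmt cKO. Each value is a share of its own window, which by construction keeps this median at a similar level in every library. It is therefore not an independent contrast to the list. Members differed among themselves. Stop 28 had 28.1% in control 1 and 5.74 to 6.05% in the other control libraries, against 8.29% in Rnmt cKO 1 and 2.70 to 4.16% in the others. Stop 800 had 4.92, 1.58, 2.64 and 2.94% in control and 4.90, 0.492, 0.358 and 0.631% in Rnmt cKO, the largest fitted change of the list without the libraries numbered 1 (log2 change -2.19, edgeR adjusted p = 0.00849). Both were named after their values were seen. Exceptions with strong stops were 160, with 13.9 to 20.6% in control and 14.8 to 17.5% in Rnmt cKO, and 579, with 13.0 to 14.6% in control and 14.2 to 22.0% in Rnmt cKO, which were also picked by their values. At stop 465 the highest library had 0.111%, and read starts there were below those of the neighbouring nucleotides.

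**Figure D4:**
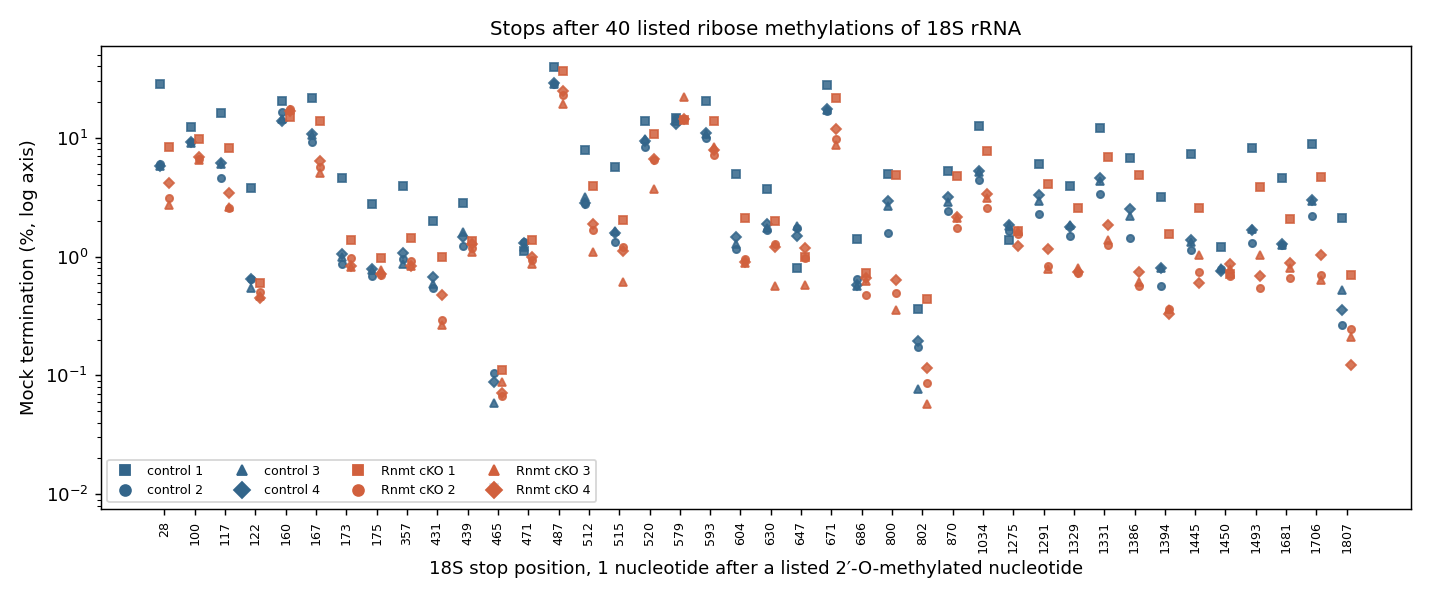
Mock termination in percent, on a log axis, at the stops 1 nucleotide after each of the 40 listed 2′-O-methylated nucleotides of 18S, in order along the rRNA. Points are libraries and shapes give the replicate number. Control 1 (blue squares) is the highest of the control libraries at 36 of the 40, and the 3 control libraries numbered 2 to 4 lie above the 3 Rnmt cKO libraries of those numbers at 30.

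The CMC libraries of the same replicates gave another order. The median over the 40 stops was 1.78, 2.07, 1.52 and 1.33% in control 1 to 4 and 1.43, 1.105, 1.37 and 1.81% in Rnmt cKO 1 to 4. Control 1 no longer stood apart, and Rnmt cKO 4 lay among the highest. The mean was still lower in Rnmt cKO at 33 of the 40 stops (82.5%, against 51.8% of all positions), but in 4 of 4 pairs at 2 of the 40 (5%, against 9.18%). At stop 1331 the CMC libraries had 4.05, 4.96, 3.67 and 2.71% in control and 3.07, 1.30, 2.74 and 4.87% in Rnmt cKO (p = 0.371 by exact permutation, adjusted p = 0.429 over 15 positions). At 28S 1142 they had 6.51, 5.55, 4.41 and 2.70% against 3.34, 1.38, 2.87 and 5.02% (p = 0.229 by exact permutation, adjusted p = 0.343). The level at these stops thus differed between 2 libraries made from the same RNA, 1 with and 1 without CMC. Windows of CMC libraries also hold starts at CMC stops, so mock and CMC percentages have unlike denominators. The parts of CMC and of library preparation in the difference between genotypes were not tested. In 5.8S, which carries 2 listed ribose methylations, stop 15 had 30.4, 18.6, 7.87 and 7.12% in control mock libraries and 15.4, 7.75, 11.1 and 6.03% in Rnmt cKO. Its CMC libraries went the other way, without overlap. They had 9.14, 7.23, 6.59 and 5.50% in control and 12.5, 11.2, 15.1 and 11.5% in Rnmt cKO. Stop 76 had 0.472 to 0.554% in control mock libraries and 0.487 to 0.519% in Rnmt cKO. The CMC means there were 0.707 ± 0.0551% and 0.610 ± 0.0451%.

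**Figure D5:**
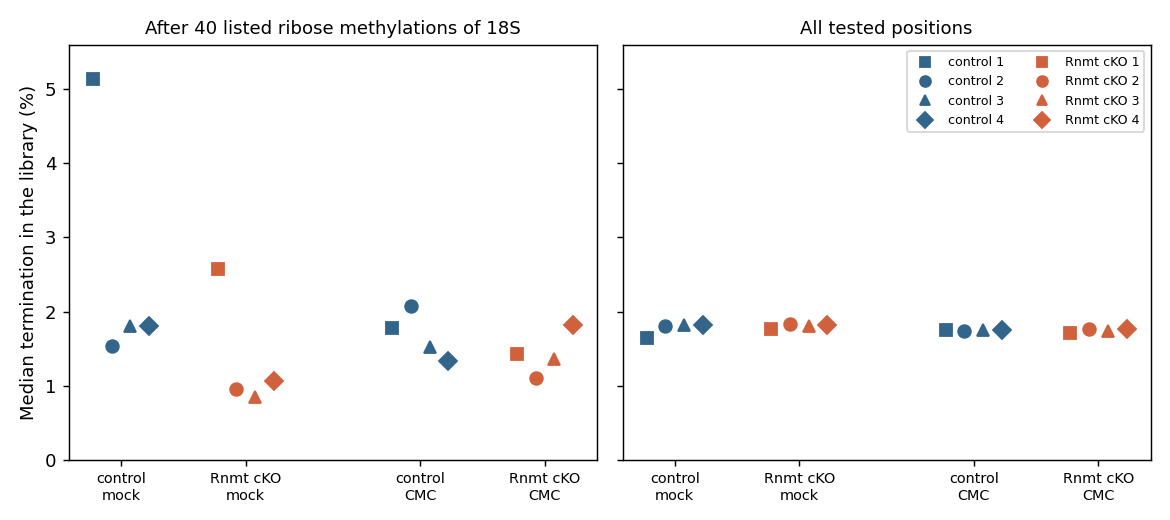
Median termination in percent over the stops after 40 listed ribose methylations of 18S (left) and over all tested positions (right), in mock and CMC libraries of both genotypes. Points are libraries and shapes give the replicate number. On the left, control 1 is at 5.13% in its mock library and at 1.78% in its CMC library. On the right all libraries lie between 1.65 and 1.82%, where shares within a window keep the median close by construction.

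The 5 positions with the smallest p without the block had no overlap between the genotypes, which the rule that picked them favours. The 2 in 18S follow no listed mark. Termination at 18S 1770 was 2.88, 4.39, 3.65 and 4.45% in control 1 to 4 and 6.57, 6.41, 10.6 and 7.02% in Rnmt cKO 1 to 4. Every Rnmt cKO library was above every control library, with a log2 change of 0.99 ± 0.21 (SE; edgeR, adjusted p = 0.649; DESeq2 adjusted p = 0.00584). The CMC libraries had 3.01, 3.73, 3.74 and 4.07% in control and 6.15, 5.65, 5.59 and 5.49% in Rnmt cKO, again without overlap (p = 0.0286 by exact permutation, adjusted p = 0.214 over 15 positions). At 28S 2652 the mock libraries had 4.77, 6.49, 5.66 and 6.16% in control and 7.73, 8.19, 8.92 and 7.98% in Rnmt cKO, and the CMC libraries 3.68 to 4.70% and 5.50 to 6.94% (mock, edgeR adjusted p = 0.649; CMC, p = 0.0286 by exact permutation, adjusted p = 0.214). These stops were therefore higher in Rnmt cKO in both sets of libraries, although neither passed the adjustment in edgeR's test of termination in all 8 mock libraries, without or with the block, or over the 15 positions in the CMC libraries. Other fits of the mock libraries called them or not. DESeq2 called 28S 2652 as well (adjusted p = 0.0153), and edgeR's test against neighbours called both with the block (adjusted p = 0.0347 and 0.0348). Without both libraries numbered 1 edgeR called their termination (adjusted p = 0.0372 and 0.0424), and with the block on those libraries it did not (adjusted p = 0.0719 and 0.0913).

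The other 3 had lower termination, but not all had smaller changes. Their log2 changes were -0.52 at 28S 1855, 0.62 at 28S 2764 and -0.39 at 18S 107 (edgeR, adjusted p = 0.649 each). At 28S 2652 it was 0.51. At 28S 1855 termination was 2.26 to 3.01% in control and 1.73 to 2.12% in Rnmt cKO, and the CMC means were 2.81 ± 0.385% and 1.75 ± 0.557% (p = 0.0571 by exact permutation). At 28S 2764, inside the bin with the smallest p, it was 1.47 to 2.38% in control and 2.91 to 3.52% in Rnmt cKO, with CMC means of 1.72 ± 0.460% and 2.39 ± 0.223% (p = 0.0857 by exact permutation). At 18S 107 it was 1.54 to 1.80% in control and 1.15 to 1.36% in Rnmt cKO, and the CMC libraries did not show it, with 1.54 ± 0.184% and 1.58 ± 0.244% (p = 0.771 by exact permutation). DESeq2 called 1855 (adjusted p = 0.0153) and gave no adjusted p for 2764 and 107. The test against neighbours with the block called 2764 (edgeR, adjusted p = 0.0184). It did not call 1855 or 107 (edgeR, adjusted p = 0.0979 and 0.487). Without both libraries numbered 1 all 3 were called (edgeR, adjusted p = 0.0151, 0.0419 and 0.0435 for 1855, 2764 and 107). With the block as well 1855 was called and the others were not (edgeR, adjusted p = 0.0264, 0.0968 and 0.0714). Of all tested positions, 1.52% had all 4 control libraries above all 4 Rnmt cKO libraries and 3.8% the reverse.

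Read starts were also set against the 6 neighbouring positions on each side, since a methylated ribose protects the bond after it from alkali and leaves a dip. Of 6356 positions, none changed (edgeR, 0%, lowest adjusted p = 0.722), with 393 (6.18%) at an unadjusted p under 0.05, and DESeq2 also called 0, with 329 (5.18%). With the replicate block 147 changed (2.31%), 49 higher (0.771%) and 98 lower (1.54%) in Rnmt cKO, and 16 of the 18 stops called above were among them. In that fit 982 positions (15.4%) had an unadjusted p under 0.05, with 492 higher and 490 lower. The smallest p-values with the block included 28S 4183, with starts at 4.26, 16.02, 12.8 and 11.9 times the neighbours in control and 6.97, 26.0, 22.0 and 21.9 times in Rnmt cKO. They also included 28S 2110, with 2.41, 0.483, 0.620 and 0.684 times against 1.08, 0.271, 0.197 and 0.278 times (edgeR with the block, adjusted p = 0.000532 and 0.00174). Without both libraries numbered 1 the count was 329 (5.18%), with 153 higher (2.41%) and 176 lower (2.77%).

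Dips were compared as a group. Positions with starts at no more than 0.25 times the neighbours on average, called protected by this ratio alone, numbered 148, with 29 in 18S, 115 in 28S and 4 in 5.8S. In Rnmt cKO 71 had a higher and 77 a lower value, and the median log2 change was -0.01 against 0.00 over all positions tested. None changed without the block in edgeR, and 6 of the 148 had an unadjusted p under 0.05 (4.05%, against 6.18% of all positions). With the block none was called, against 2.31% of all positions, and without the libraries numbered 1 there were 2, 1 in each direction (1.35%, against 5.18%). Only 1 of the 29 in 18S, stop 465, follows a listed ribose methylation, and in 5.8S stop 76 does. As 35 listed ribose methylations of 18S were tested against neighbours, the group misses nearly all of them. It cannot be read as a measure of ribose methylation. The deepest dips, 28S 3857, 2762, 2787 and 4454 and 18S 1013, held 0.0609 to 0.0747 times the starts of their neighbours over the 8 libraries. The smallest p-values were at 28S 2386, with 0.227 to 0.317 times in control and 0.0377 to 0.1404 in Rnmt cKO, at 28S 4190, with 0.104 to 0.157 and 0.169 to 0.228, and at 28S 482, with 0.0717 to 0.0922 and 0.0970 to 0.174 (edgeR, adjusted p = 0.722 each). These rest on as few as 1, 14 and 8 starts in a library.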

How the data were processed

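Per the methods, the authors trimmed adapters with cutadapt, aligned reads to custom rRNA sequences with bowtie2, removed PCR duplicates by a random barcode and dropped secondary and low-quality alignments, and the deposited values are whole counts of read starts per rRNA nucleotide, not normalized. The submitters' processing notes name STAR 2.5.2b, which the methods do not give for these libraries, and which aligner made the files was not settled.

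All 8 mock libraries were grouped by their titles. Depth was the sum of starts per library. Termination divided the starts at a nucleotide by the starts in the 65 nucleotides that end there, because the files hold no read lengths, and it is a lower bound. Stops next to pseudouridine sites called from the CMC libraries (at least 3% termination and a score of 3 in either genotype) were left out, 70 in all. Positions of at least 1% mean termination were tested, and for the neighbour test those with a neighbour median of at least 20 starts in every library. Tests were edgeR 4.0.16 quasi-likelihood fits (R 4.3.3) with the window, the neighbour median or the rRNA total as offset, p-values adjusted by Benjamini and Hochberg and called under 0.05, and 2-sided exact permutation tests over libraries for single values (Python 3.11.15). Errors with ± are SDs over 4 libraries or, for log2 changes, SEs. The code was tested on simulated data drawn without a shared effect of replicate number, so that test does not bear on the libraries numbered 1.

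Named were the 10 strongest stops, the 5 positions and bins with the smallest p, up to 10 called ones, the first nucleotides, the deepest and the smallest-p protected positions, and the stops of 2 known base modifications. The members and lists were chosen with earlier results of these data known. Labels give both genotypes the replicate numbers 1 to 4. Deviations of same-numbered libraries from their genotype means correlated over 3945 positions at 0.659, 0.422, 0.169 and 0.381, so the numbers were taken as pairs, which rested on the libraries numbered 1. Alternatives were the block, limma 3.58.1, DESeq2 1.42.0, other windows, filters and scalings, and each library left out.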

Additional observations from a re-analysis of the deposited data

Results flagged for a closer look

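Of 104 groups of 4 libraries examined for a library far from the rest (Dixon's test), 26 held one, where chance flags about 1 in 20 groups. The measures share libraries and many share reads, so they are not independent. In 15 of them it was control 1, in 8 Rnmt cKO 1 and in 3 Rnmt cKO 3.

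Control 1 had 52.5% of its 18S starts downstream of the midpoint (48.6 to 49.0% in the other control libraries), 5.29% of its 5.8S starts at the first nucleotide (1.999 to 2.21%), 2.11% of its 28S starts at the 10 strongest stops (2.96 to 2.98%) and a median termination of 1.65% (1.81 to 1.82%). Among strong stops it stood out at 18S 487 with 39.4%, at 18S 1854 with 74.3%, at 28S 3882 with 51.2% and at 28S 4184 with 73.4%. At stops called with the replicate block it was at 24.6% (28S 1142), 8.25% (18S 1493), 14.4% (28S 3960), 12.1% (18S 1331), 8.85% (18S 1706), 3.89% (18S 1329) and 16.002% (18S 117).

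Rnmt cKO 1 was far above the others of its genotype at 18S 1854 with 69.1%, 28S 1142 with 7.46%, 18S 1493 with 3.86%, 28S 3960 with 5.12%, 18S 1331 with 6.84%, 18S 1706 with 4.68%, 18S 1329 with 2.57% and 18S 117 with 8.19%. Rnmt cKO 3 had 2.21% of its 18S starts at the first nucleotide (1.55 to 1.66% in the others), 3.602% of its 28S starts at the 10 strongest stops (3.0003 to 3.08%) and 10.6% termination at 18S 1770 (6.41 to 7.02%).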

How the results depend on the processing

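Of 949 alternative values, 875 kept direction and side of the threshold, 44 newly passed it and 30 reversed. With the replicate block 18 termination positions and 147 neighbour positions were called, against 0 without it, and no bin was. DESeq2 called 10 termination positions and 1 bin. Without both libraries numbered 1, termination gave 103 calls (81 with the block) and neighbours 329, and the cause was not tested.

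Leaving out 1 library at a time, neighbour calls ran from 0 to 4 (4 without Rnmt cKO 1). Differences in percentage points ran from -0.450 to 1.63 (28S share), -0.573 to 0.174 (5S share), -0.0123 to 0.0443 (median termination), -0.609 to 1.05 and -1.01 to 0.0944 (starts past the midpoint of 18S and 28S) and -1.002 to 0.0961 (first nucleotide of 5.8S). The sign turned without control 1 alone, except for the 28S share and the 18S midpoint, where leaving out any of 4 other libraries turned it. Log2 changes ran from -0.0738 to 0.433 (neighbours, 28S 2762), -0.00219 to 0.0418 (18S 1251), -0.0101 to 0.546 (18S 1853), -2.43 to 0.00782 (28S 3960) and -0.0562 to 0.378 (28S 4183), turning without Rnmt cKO 1 at the first 2, also without Rnmt cKO 3 at 28S 2762, and without control 1 at the others.

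Other reversals were starts past the midpoint of 18S without the strongest stops (-0.155) and of 28S without its last 400 nucleotides (0.4395), 28S 2762 without number 1 (-0.0655), 18S 1251 with windows of 30 (-0.00819) and 40 (-0.000831), 28S 4183 with a window of 30 (-0.191) and without number 1 (-0.0564, with the block -0.0541). Without control 1 and Rnmt cKO 3, log2 changes reversed at 18S 1493 (0.105), 18S 1853 (-0.0563), 28S 3960 (0.189) and 28S 4183 (-0.0578). With 4 libraries a genotype, exact tests cannot go below 0.0286, or 0.125 paired.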
